A study of Homo sapiens with 8 samples.

Results

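Transcripts of 10 transcriptional regulators of the cell cycle were followed across 8 two-colour microarrays. They are the activating E2F factors E2F1, E2F2 and E2F3, the atypical repressors E2F7 and E2F8, the retinoblastoma family RB1, RBL1 and RBL2, and the mitotic factors MYBL2 and FOXM1. A gene was taken by its name in the array annotation and represented by its brightest probe, which gave 10 of the 43317 genes on the array. The 10 genes had 13 probes, since E2F3, E2F7 and RBL1 had 2 each, and all 10 were above background on every array in at least 1 channel.

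Each array compared cells that had received a small RNA, labelled with Cy5, with cells of the same line that the labels call not transfected and the study calls mock, labelled with Cy3. PC3, a prostate cancer line, received either arm of miR-150 (miR-150-5p, miR-150-3p) or the 3p arm of miR-99a or of miR-100 (miR-99a-3p, miR-100-3p). FaDu, a hypopharyngeal squamous carcinoma line, received either arm of miR-99a (miR-99a-3p, miR-99a-5p). PANC-1, a pancreatic ductal carcinoma line, received 1 of 2 siRNAs against the transcription factor FOXQ1, named si-FOXQ1-1 and si-FOXQ1-2. Each condition had 1 array and no array had the dyes exchanged, so the effects of dye and transfection cannot be told apart, the ratios have no test, and each describes 1 pair of RNAs. The controls had not received a control miRNA or siRNA, and the study does not name the time after transfection at which these RNAs were taken.

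Activating E2F factors bind the promoters of genes for DNA replication and switch them on as cells enter S phase. The retinoblastoma protein and its relatives hold E2F factors inactive until cyclin-dependent kinases phosphorylate them, and E2F7 and E2F8 later repress the same promoters. B-MYB, the product of MYBL2, and FOXM1 join the MuvB complex and drive the genes for mitosis, and several of these regulators are themselves transcribed under E2F control.

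The mature miRNAs of the miR-99 and miR-100 transfectants are shown because the members' ratios on the arrays that received them ran from the lowest to the highest of the series. Capitals mark the seed, bases 2 to 8 from the 5′ end. Sequences and positions are those of RefSeq on GRCh38.p14, where miR-99a-5p lies at chr21:16539101-16539122 and miR-99a-3p at chr21:16539138-16539159 on the plus strand, both within MIR99A, and miR-100-3p at chr11:122152240-122152261 on the minus strand, within MIR100.
miR-99a-5p: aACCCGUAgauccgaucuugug
miR-99a-3p: cAAGCUCGcuucuaugggucug
miR-100-3p: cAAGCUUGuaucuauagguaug
The seeds of miR-99a-3p and miR-100-3p differed by 1 substitution, C7U, counted from the 5′ end of miR-99a-3p. Over the 22 bases they differed at 5 positions, and the other 4 substitutions were C9U, U10A, G16A and C20A. The seed of miR-99a-5p, the other arm of the same hairpin, was distinct from both.

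Each array measured between 19184 and 20919 genes above background in at least 1 channel. The spike-in controls gave slopes of 0.882 to 0.900 on their expected log ratios, so that ratios were compressed. FOXQ1 had log2 ratios of -2.16 with si-FOXQ1-1 and -2.12 with si-FOXQ1-2. The markers KRT5, KRT14, TP63 and DSG3 were above background in mock FaDu cells and in no mock channel of the other lines, while KRT6A was also above background on 2 PC3 arrays and SFN on every array of each line. HOXB13 was above background on all arrays and highest in PC3, at a mean log2 mock level of 15.4 against 7.05 in FaDu and 8.88 in PANC-1, and KLK3 was not above background on any array. In PANC-1, the ductal markers KRT7, KRT19 and SOX9 and the mesenchymal marker VIM were above background on both arrays and MSLN on 1 of 2, but MSLN was so on both FaDu arrays and the others on every PC3 and FaDu array, so these markers do not set PANC-1 apart.

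With miR-99a-3p, 6 of the 10 members were lower than in mock PC3 cells by at least 2-fold, whereas in FaDu cells none was and 4 were higher by at least 2-fold. A log2 ratio of -1 or 1, which is 2-fold, is used here as the threshold, and no test stands behind it. In PC3 with miR-99a-3p, E2F1, E2F2, E2F8, RBL1, MYBL2 and FOXM1 lay at or below -1, against 7.39% of all genes measured there, and no member lay at or above 1, against 4.23%. In RNA of whole cultures, fewer cells in a given phase of the cycle and less of a transcript per cell cannot be told apart. In PC3 with miR-150-3p, E2F1, E2F2, E2F8, MYBL2 and FOXM1 lay at or below -1, which is 5 of 10 against 6.68% of all genes, and none lay at or above 1, against 2.69%. In FaDu with miR-99a-3p, E2F2, E2F3, E2F8 and MYBL2 lay at or above 1, which is 4 of 10 against 8.25%, and none lay at or below -1, against 9.37%.

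On the other 5 arrays few members passed the threshold. FOXM1 was the 1 member at or below -1 in PC3 with miR-100-3p, where 3.34% of all genes were, and none was at or above 1, against 0.987%. With miR-150-5p in PC3 no member passed it, against 4.49% of all genes below and 0.664% above. The same held for miR-99a-5p in FaDu, against 4.86% below and 0.85% above. In PANC-1, E2F8 was the 1 member at or above 1 with si-FOXQ1-1, against 0.905%, and no member was at or below -1, against 3.31%. With si-FOXQ1-2 no member passed, against 3.29% below and 0.412% above.

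The median log2 ratio of the 10 members was -1.24 in PC3 with miR-99a-3p, -0.23 with miR-100-3p, -0.05 with miR-150-5p and -0.73 with miR-150-3p. It was 0.26 in FaDu with miR-99a-5p and 0.79 with miR-99a-3p, and 0.24 and 0.14 in PANC-1 with si-FOXQ1-1 and si-FOXQ1-2. The median over all genes measured lay between -0.03 and 0.02 on the 8 arrays.

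**Figure D1:**
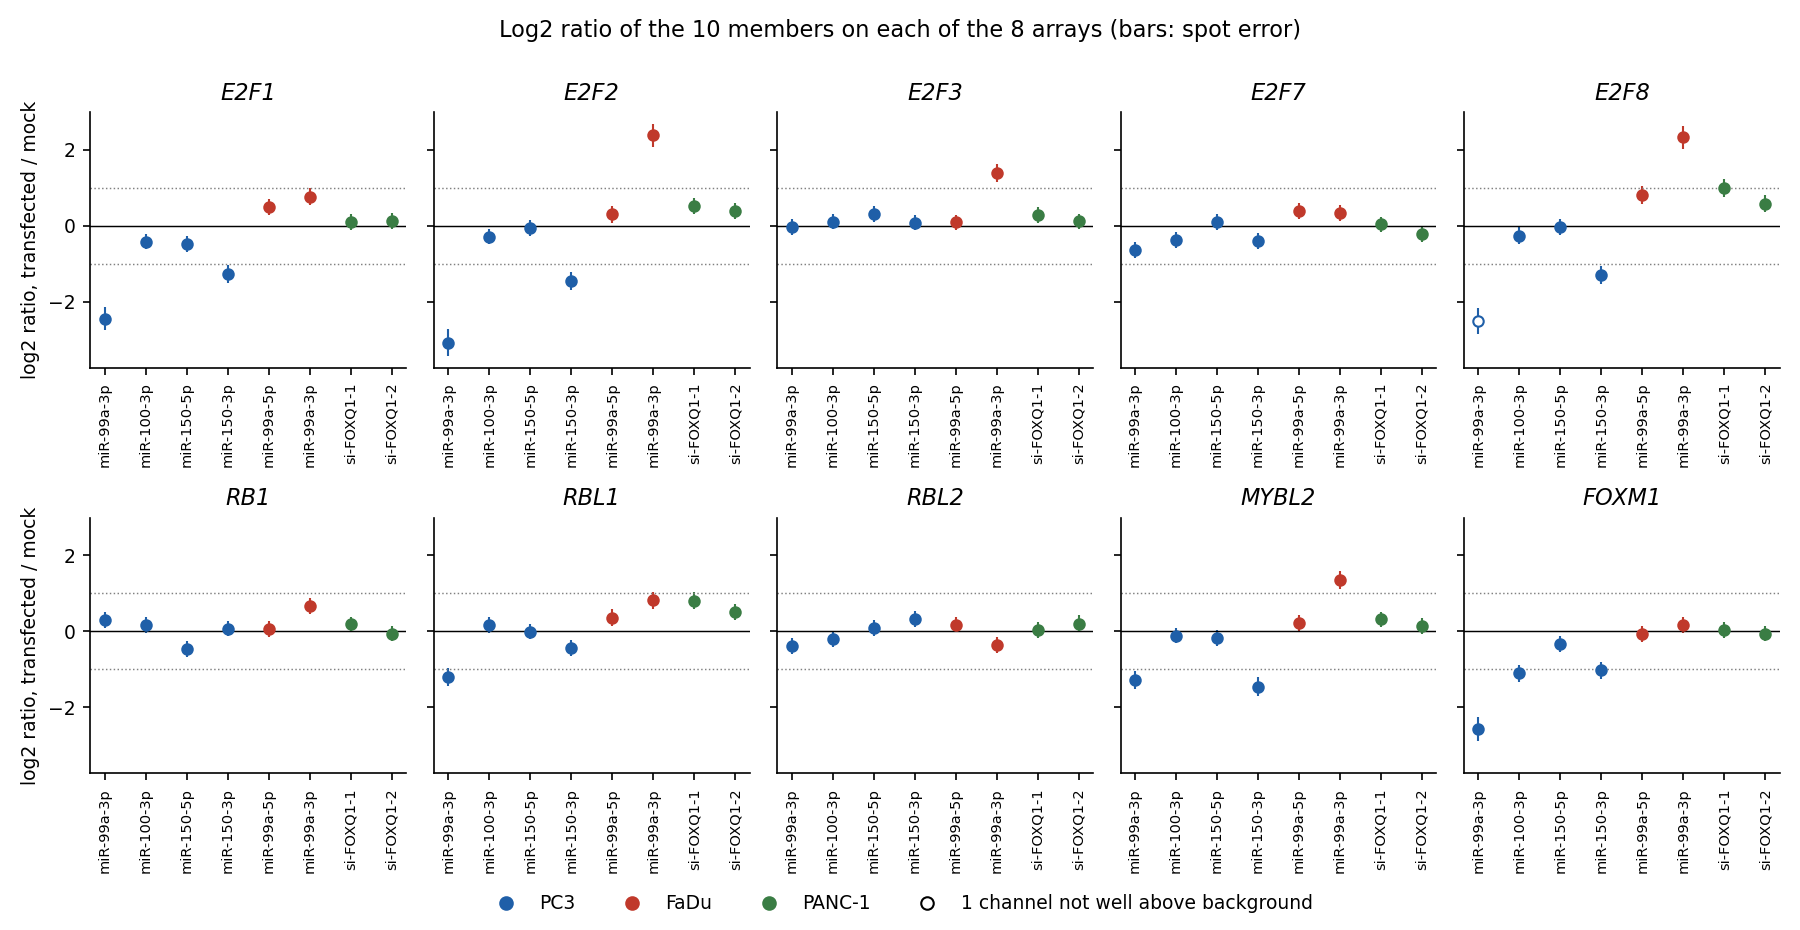
Log2 ratio of transfected over mock signal (vertical axis) for each of the 10 members on the 8 arrays (horizontal axis), coloured by cell line, with bars for the spot error, dotted lines at -1 and 1, and an open symbol where 1 channel was not well above background. E2F1, E2F2, E2F8 and FOXM1 reach their lowest values, between -2.45 and -3.08, in PC3 with miR-99a-3p, while E2F2 and E2F8 reach 2.39 and 2.33 in FaDu with the same miRNA.

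E2F1, the founding activator of the family, was measured by 10 spots of a probe at chr20:32263989-32264048 on hg19, minus strand. In PC3 with miR-99a-3p its signal was 2034 in the mock channel and 373 in the transfected channel, a log2 ratio of -2.45 with a spot error of 0.31, and the 10 spots had an SD of 0.13. The spot error is the scanner software's own estimate for the ratio of a probe. In PC3 the log2 ratios of E2F1 with the other miRNAs were -0.42 with miR-100-3p, -0.49 with miR-150-5p and -1.27 with miR-150-3p, with errors of 0.21, 0.21 and 0.24. In FaDu they were 0.49 with miR-99a-5p and 0.77 with miR-99a-3p, and in PANC-1 0.10 and 0.13. E2F1 was thus lower than mock on all 4 PC3 arrays and higher on both FaDu arrays, by more than its spot error, and within that error in PANC-1.

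E2F2, another activator, measured at chr1:23832933-23832992 (hg19, minus strand), had the widest span of the 10 members, 5.47 on the log2 scale between its lowest and highest array. With miR-99a-3p its signal was 1315 in mock and 155 in transfected PC3 cells, a log2 ratio of -3.08 with a spot error of 0.35, and 331 in mock and 1733 in transfected FaDu cells, a log2 ratio of 2.39 with a spot error of 0.30. The other PC3 arrays gave -0.29 with miR-100-3p, -0.06 with miR-150-5p and -1.46 with miR-150-3p. FaDu with miR-99a-5p gave 0.30, and PANC-1 gave 0.53 with si-FOXQ1-1 and 0.40 with si-FOXQ1-2. E2F2 therefore lay past 2-fold below mock with miR-99a-3p and miR-150-3p in PC3 and past 2-fold above mock with miR-99a-3p in FaDu.

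E2F3, the third activator, stayed near mock in PC3 by its brighter probe. Its log2 ratios there were -0.03 with miR-99a-3p, 0.11 with miR-100-3p, 0.31 with miR-150-5p and 0.08 with miR-150-3p. In FaDu it was 0.09 with miR-99a-5p and 1.38 with miR-99a-3p, where the signal was 1097 in mock and 2864 in transfected cells, and in PANC-1 it was 0.29 and 0.12. Its other, less bright probe was above background in both channels in FaDu and gave 0.36 with miR-99a-3p (spot error 0.30), so the call of E2F3 in FaDu rests on 1 of its 2 probes. In PC3 the less bright probe gave -0.55 with miR-99a-3p (spot error 0.43) and -0.51 with miR-150-3p (spot error 0.34). Its transfected channel was dim on both of those arrays. Both probes lie on the plus strand of chromosome 6 (hg19), the brighter at chr6:20493845-20493904 and the other at chr6:20490602-20490661.

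Of the atypical factors, E2F8 passed the threshold on 4 arrays and E2F7 on none, and with normexp background correction and loess E2F8 lost it with miR-150-3p (-0.93) and si-FOXQ1-1 (0.70). The E2F8 probe lies at chr11:19245675-19245734 (hg19, minus strand). In PC3 with miR-99a-3p the mock signal of E2F8 was 250 and the transfected signal, 43.9, was not well above background. By the deposited signals E2F8 was there at least 5.46-fold lower than in mock cells. The bound was 3.40-fold when the limit was set at the highest signal not called above background, a limit chosen after seeing the data. With normexp background correction and loess the log2 ratio of E2F8 there was -1.28, a smaller difference than either bound. The bounds therefore hold only for the deposited background correction. In the other PC3 arrays E2F8 had log2 ratios of -0.26 with miR-100-3p, -0.04 with miR-150-5p and -1.30 with miR-150-3p. In FaDu its signal was 158 in mock and 793 in miR-99a-3p transfected cells, a log2 ratio of 2.33 with a spot error of 0.30, and the ratio was 0.81 with miR-99a-5p. With normexp background correction and loess these FaDu ratios were 1.77 and 0.51. In PANC-1 the deposited ratio of E2F8 was 1.00 with si-FOXQ1-1, at the threshold, and 0.59 with si-FOXQ1-2, with mock signals of 86.4 and 94.0. E2F7, which represses E2F1 together with E2F8, ranged from -0.63 in PC3 with miR-99a-3p to 0.38 in FaDu with miR-99a-5p and had spot errors of 0.20 to 0.21.

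Among the retinoblastoma family, RBL1 (p107) alone passed the threshold, and its brighter probe lies at chr20:35627197-35627256 (hg19, minus strand). Its log2 ratio was -1.20 in PC3 with miR-99a-3p, with signals of 391 in mock and 170 in transfected cells and a spot error of 0.25. With normexp background correction and loess the ratio was -0.81, which is short of the threshold, and 5 members in place of 6 then lay at or below -1 on this array. The other RBL1 probe was dim in the transfected channel there, as on several other arrays, and is not used to describe RBL1. In the remaining PC3 arrays RBL1 was at 0.17 with miR-100-3p, -0.00 with miR-150-5p and -0.43 with miR-150-3p. It was 0.36 in FaDu with miR-99a-5p and 0.81 with miR-99a-3p, and 0.81 and 0.51 in PANC-1 with si-FOXQ1-1 and si-FOXQ1-2. RB1, the retinoblastoma protein itself and measured by 10 spots, ranged from -0.46 in PC3 with miR-150-5p to 0.68 in FaDu with miR-99a-3p. RBL2 (p130), the family member of resting cells, ranged from -0.38 in PC3 with miR-99a-3p to 0.33 in PC3 with miR-150-3p, the narrowest span of the 10 members at 0.71.

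MYBL2, which encodes B-MYB, and FOXM1, the forkhead factor of mitotic genes, both lay past the threshold with miR-99a-3p and miR-150-3p in PC3. Their probes lie at chr20:42343796-42343855 (plus strand) for MYBL2 and chr12:2967322-2967381 (minus strand) for FOXM1, on hg19. MYBL2 had log2 ratios of -1.28 with miR-99a-3p, -0.11 with miR-100-3p, -0.17 with miR-150-5p and -1.46 with miR-150-3p in PC3. In FaDu it was 0.22 with miR-99a-5p and 1.35 with miR-99a-3p, where the signal was 876 in mock and 2241 in transfected cells, and in PANC-1 it was 0.32 and 0.15. FOXM1 had log2 ratios of -2.57 with miR-99a-3p, -1.10 with miR-100-3p, -0.33 with miR-150-5p and -1.02 with miR-150-3p in PC3. Its signal in the miR-99a-3p pair was 3102 in mock and 522 in transfected cells. In FaDu FOXM1 was -0.07 with miR-99a-5p and 0.17 with miR-99a-3p, and in PANC-1 0.04 and -0.06, all 4 within the spot error. MYBL2 thus differed from mock in opposite directions in PC3 and FaDu with miR-99a-3p, while FOXM1 passed the threshold in PC3 alone among the lines, a contrast that was not tested.

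**Figure D2:**
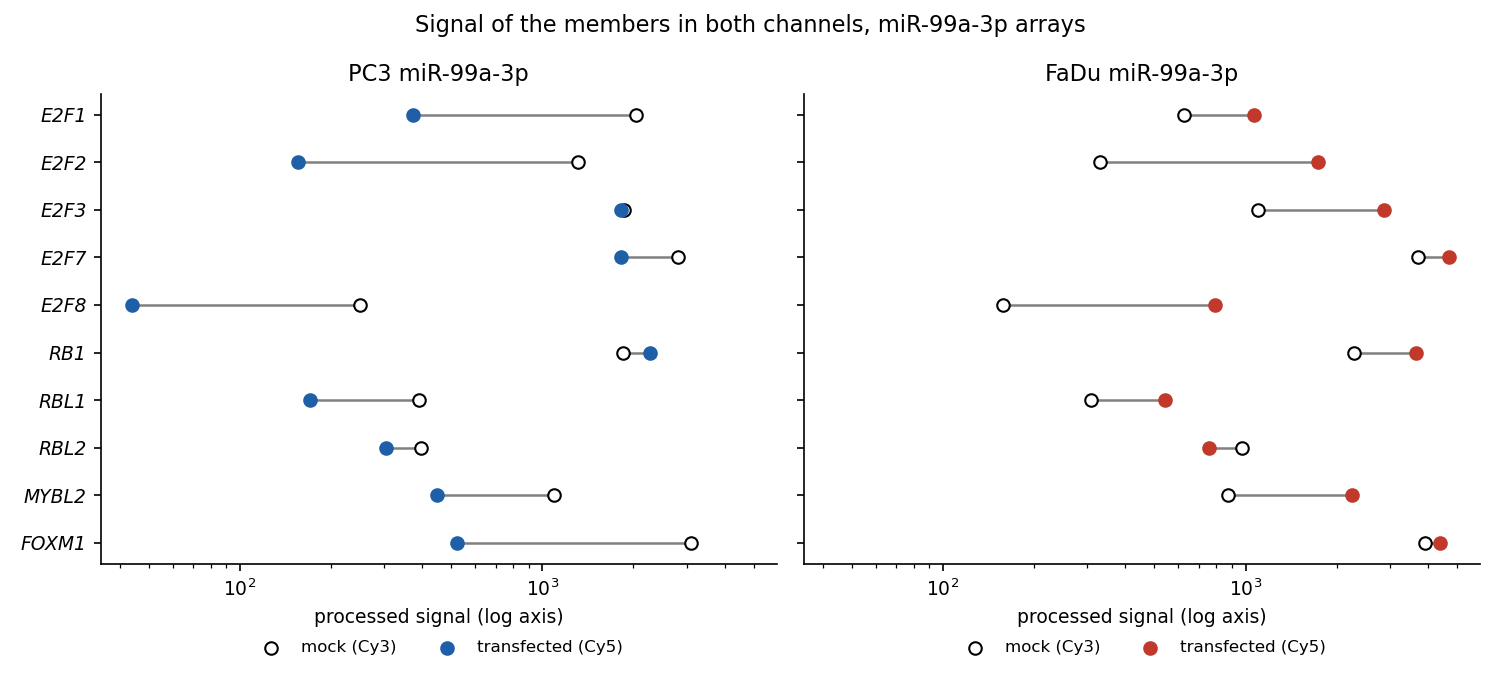
Signal of each member in the mock channel (open circles) and the transfected channel (filled circles) on the PC3 and FaDu miR-99a-3p arrays, on a log axis, as deposited and not scaled between arrays. E2F2 goes from 1315 to 155 in PC3 and from 331 to 1733 in FaDu, and E2F8 from 250 to 43.9 and from 158 to 793.

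Between PC3 and FaDu with miR-99a-3p, 8 of the 10 members differed by more than 2 combined spot errors. All 8 had the lower ratio in PC3. The share of all genes that differed by as much was not computed, so this count has nothing to be set against. The difference of log2 ratios was -5.47 for E2F2, -4.84 for E2F8, -3.22 for E2F1, -2.74 for FOXM1, -2.64 for MYBL2, -2.02 for RBL1, -1.42 for E2F3 and -0.96 for E2F7, where E2F8 was dim in transfected PC3 cells and E2F3 and E2F7 rest on their brighter probes. With normexp background correction and loess E2F8 was at -1.28 in PC3 and 1.77 in FaDu. The other E2F7 probe, above background in both channels, gave -0.83 in PC3 and -0.18 in FaDu, with spot errors of 0.28 and 0.23. RB1 differed by -0.38 and RBL2 by -0.02, less than 2 combined errors of 0.30 each. The spot error covers measurement within an array and not the spread between cultures, so these differences were not tested. The G1/S, G2/M and interferon genes described below also differed between these arrays.

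The next pairs set side by side RNAs given to 1 line, whose arrays may share their mock RNA. For these pairs too, the share of all genes past 2 combined spot errors was not computed. Between miR-99a-3p and miR-100-3p in PC3, whose seeds differ by C7U, 6 members differed by more than 2 combined spot errors. The log2 ratio was -3.08 against -0.29 for E2F2, -2.45 against -0.42 for E2F1, -2.57 against -1.10 for FOXM1 and -1.20 against 0.17 for RBL1. For E2F3, E2F7, RB1 and RBL2 the difference of log2 ratios between these miRNAs lay between -0.25 and 0.13, within 2 combined errors of 0.29 to 0.30 each. Between the arms of miR-150 in PC3, 5 members differed in this way, and E2F2 had -1.46 with miR-150-3p against -0.06 with miR-150-5p. Between the arms of miR-99a in FaDu 5 members did, and E2F2 had 2.39 with miR-99a-3p against 0.30 with miR-99a-5p. E2F3 was among these 5 by its brighter probe, at 1.38 against 0.09. Its other probe had the opposite order, at 0.36 against 0.70, with spot errors of 0.30 and 0.37. Between the FOXQ1 siRNAs in PANC-1 none of the 10 members differed by more than 2 combined spot errors, and their differences ran from -0.41 to 0.17.

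RefSeq promoter windows, 250 bases before to 50 after a gene's start, were at hand for 8 of the 10 members in 10 windows. The E2F-type words TTTCCCGC, TTTCGCGC, TTTGCCGC and TTTGGCGC were searched on both strands, and 3.31% of all 35116 windows held 1 or more. E2F1, E2F2, E2F3 and RBL1 held them, and they are shown because 3 of these genes lay below the threshold in PC3 with miR-99a-3p and E2F3 did not. The sequences run 5′ to 3′ on the gene's strand and capitals mark the words. Their GRCh38.p14 positions are chr20:33686394-33686422 for E2F1, chr1:23531257-23531286 for E2F2 and chr20:37096000-37096029 for RBL1, all on the minus strand, and chr6:20401815-20401844 for E2F3 on the plus strand, all upstream of the start.
E2F1: tttcGCGGCAAAaaggaTTTGGCGCgtaa
E2F2: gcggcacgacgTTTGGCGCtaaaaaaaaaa
E2F3: ttgaaaagccgGCGGGAAAtccgagtttcg
RBL1: gcagatTTTCGCGCgcTTTGGCGCaggtgg
E2F1 and RBL1 held 2 words each and E2F2 and E2F3 1 each, within 53 bases of the start. RB1, RBL2, E2F7 and MYBL2 had no such word in their windows. The CHR-type words TTTGAA and TTCGAA, a kind of element found in mitotic promoters, were in the windows of E2F3 and RBL2 and in 16.4% of all windows. A word in a window is a description of the sequence and not a measured site.

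Of 35 G1/S genes under E2F control, 31 lay at or below -1 in PC3 with miR-99a-3p (median log2 ratio -1.93), and 19 lay at or above 1 in FaDu with miR-99a-3p (median 1.12). DTL, a ubiquitin ligase subunit of replication control, had -3.80 in PC3 and 0.77 in FaDu, and RRM2, a subunit of ribonucleotide reductase, -3.39 and 1.32. At the other end of the list in PC3, the DNA ligase LIG1 had -0.79, with 1.38 in FaDu. In PC3 with miR-99a-3p, 6 of the 35 were dim in 1 channel, and with these at their bounds the median was -1.89. With miR-150-3p in PC3, 9 of 35 lay at or below -1 and the median was -0.88. The shares of all genes given above for these arrays are the ones to set beside these counts.

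The G2/M genes under B-MYB and FOXM1 control gave a similar description. In PC3 with miR-99a-3p, 33 of 36 lay at or below -1, against 7.39% of all genes. The median was -2.12, or -2.07 with the 4 genes dim in 1 channel at their bounds. In FaDu, 12 of 36 lay at or above 1, against 8.25%, with a median of 0.87. CDK1, the mitotic kinase, had -3.03 in PC3 and 0.86 in FaDu, and UBE2C, a ubiquitin-conjugating enzyme of mitotic exit, -2.96 and 0.64. The phosphatase CDC25B had -0.33 and 0.44, and ECT2, which acts in cytokinesis, -0.93 and 1.01. With miR-150-3p in PC3, 5 of 36 lay at or below -1, against 6.68% of all genes, and the median was -0.69. On the miR-100-3p array the medians were -0.44 for the G1/S and -0.55 for the G2/M genes. There 1 and 0 of these genes lay at or below -1, against 3.34% of all genes.

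The E2F and MuvB partners as a group stayed closer to mock. Of 14 measured in PC3 with miR-99a-3p, 2 lay at or below -1, against 7.39% of all genes, and the median was -0.26. In FaDu 4 of 14 lay at or above 1, against 8.25%, with a median of 0.60. The pair below -1 in PC3 was MYBL1 (A-MYB), at -2.45 in PC3 and 2.41 in FaDu, and SUV39H1, a histone methyltransferase that binds RB1, at -1.40 and 1.05. E2F6, a repressor that does not bind the retinoblastoma family, had 0.59 and 0.93, and LIN52, a MuvB subunit, 0.35 and 0.40.

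The regulators upstream of RB1 went both ways. In PC3 with miR-99a-3p, 6 of 18 measured lay at or below -1, against 7.39% of all genes. There 2 lay at or above 1, against 4.23%, and the median was -0.07. The cyclins CCNE2 and CCNA2 had -2.60 and -2.20, and the kinase inhibitors CDKN1C (p57) and CDKN2B (p15) had 1.54 and 1.40. In FaDu, 6 of 19 lay at or above 1, against 8.25% of all genes, and the median was 0.59. The 2 of 19 at or below -1 were close to the share of all genes, 9.37%. There CCNE2 had 2.27, CCNA2 1.59 and CDKN1C 0.27, and CDKN2B was not well above background in transfected cells and at least 2.78-fold lower than in mock, or at least 1.85-fold with the stricter limit used for E2F8.

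Interferon-response genes were followed beside the members. Of 15 such genes, 14 lay at or above 1 in PC3 with miR-150-3p, against 2.69% of all genes, and the median was 2.29. In FaDu with miR-99a-3p 9 did, against 8.25%, and the median was 1.12. None did in PC3 with miR-99a-3p, against 4.23%, where the median was -0.16. IFI6 and RSAD2 both had 3.30 in PC3 with miR-150-3p, while IFIT3 had 2.68 and IRF7 -1.72 in FaDu with miR-99a-3p. The median was -0.26 with miR-100-3p and -0.23 with miR-150-5p in PC3, 0.40 with miR-99a-5p in FaDu, and -0.11 and -0.24 in PANC-1. The part of this response in the members' ratios was not tested.

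**Figure D3:**
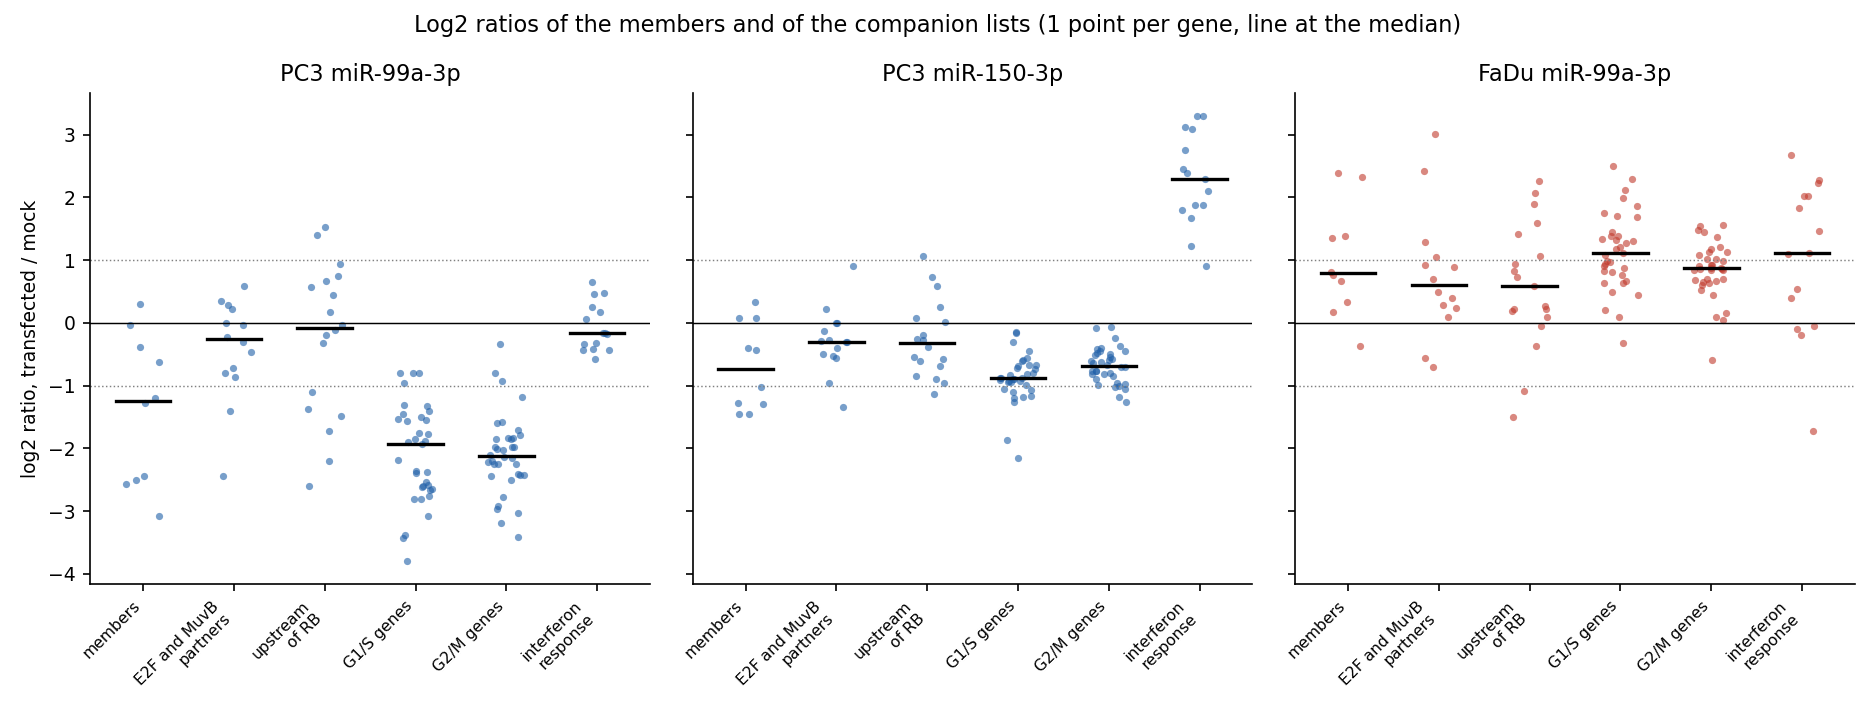
Log2 ratio of transfected over mock signal (vertical axis) for the members and the 5 companion lists (horizontal axis) on 3 arrays, 1 point per gene measured, with a line at the median. The G1/S and G2/M genes have medians of -1.93 and -2.12 in PC3 with miR-99a-3p, -0.88 and -0.69 in PC3 with miR-150-3p, and 1.12 and 0.87 in FaDu with miR-99a-3p.

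Mock cells of the 3 lines differed in the same genes, and the widest differences were those of E2F2, RBL2 and E2F1. On the log2 scale of the normalized Cy3 signal, E2F2 was between 9.77 and 10.17 on the 4 PC3 arrays, at 7.99 and 8.05 on the FaDu arrays and at 9.80 and 9.86 on the PANC-1 arrays. E2F1 was between 10.43 and 10.80 in PC3, at 8.94 and 8.98 in FaDu and at 10.17 and 10.18 in PANC-1. RBL2 was between 8.09 and 8.13 in PC3, at 9.67 and 9.61 in FaDu and at 7.85 and 7.75 in PANC-1. FaDu mock cells therefore held the lowest E2F1 and E2F2 and the highest RBL2 on these arrays. The share of all genes for which FaDu lay apart in this way was not counted.

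The mock channels were not evenly spread within a line. Over 15862 genes, the mock channels of the miR-99a-3p and miR-100-3p arrays of PC3 differed by an SD of 0.073 per channel (log2) and those of the miR-150-5p and miR-150-3p arrays by 0.064, but channels taken across these pairs differed by 0.143 to 0.146. The FaDu pair differed by 0.092 and the PANC-1 pair by 0.072, and repeated spots within an array had SDs of 0.050 to 0.061. E2F1, E2F2, E2F8, RBL1, RBL2, MYBL2 and FOXM1 were higher on both miR-150 arrays and RB1 and E2F7 lower. For E2F1 the PC3 mock levels were 10.78 and 10.80 on the miR-150 arrays against 10.50 and 10.43 on the miR-99a-3p and miR-100-3p arrays. Other gaps were small, as for RBL2, at 8.12 and 8.13 against 8.09 on both other arrays. E2F7 was at 10.97 on the miR-150-3p array against 10.98 on the miR-99a-3p array. The share of all genes split in this way was not counted. The labels do not say whether mock channels come from separate cultures. The p-values over 8 channels measure only the spread between them, which may be technical, and a fit with the closest channels counted as 1 sample, chosen after seeing the data, is given beside them. That fit has 2 PC3 samples, 1 FaDu and 1 PANC-1 sample, and assumes that the single samples vary as PC3 does.

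Over all 8 mock channels (limma, Benjamini-Hochberg over 21496 genes), 9 members differed between FaDu and PC3 at an adjusted p under 0.05, where 77% of all genes did, and 3 of them by at least 2-fold, against 42.1%. Between FaDu and PANC-1 9 members did, against 71.6%, and 5 by at least 2-fold, against 38.9%. Between PANC-1 and PC3 8 members did, against 69.5%, and none by 2-fold, against 33.2%. With the closest channels counted as 1 sample, 6 members differed between FaDu and PC3 (60.4% of all genes), 6 between FaDu and PANC-1 (51.1%) and 2 between PANC-1 and PC3 (48.3%). Since so large a share of all genes differed between the lines, what follows describes sizes.

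E2F2 was lower in FaDu than in PC3 by 1.96 on the log2 scale (standard error 0.13), with a limma adjusted p of 6.94e-06 over 8 channels and 0.0056 with the closest channels counted as 1 sample. E2F1 had a FaDu minus PC3 difference of -1.67 (standard error 0.12), with limma adjusted p-values of 1.22e-05 and 0.0074 in these fits. RBL2 had a difference of 1.53 (standard error 0.055), with limma adjusted p-values of 3.94e-07 and 0.0039. Against PANC-1, FaDu differed by 1.84 for RBL2, -1.81 for E2F2, -1.21 for E2F1, -1.18 for E2F3 and 1.05 for FOXM1, all at a limma adjusted p under 0.05 in both fits. The E2F3 differences depended on the probe, since the less bright one gave 0.23 for FaDu minus PC3, where the brightest gave -0.59. RB1 was 0.56 higher in FaDu than in PC3, E2F7 0.59 higher and E2F3 0.59 lower, and these held in both fits. MYBL2, FOXM1 and E2F8 differed between FaDu and PC3 by -0.32, 0.44 and -0.62 and passed only over 8 channels, with limma adjusted p-values of 0.18, 0.075 and 0.069 otherwise. RBL1 passed in neither, at -0.07.

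**Figure D4:**
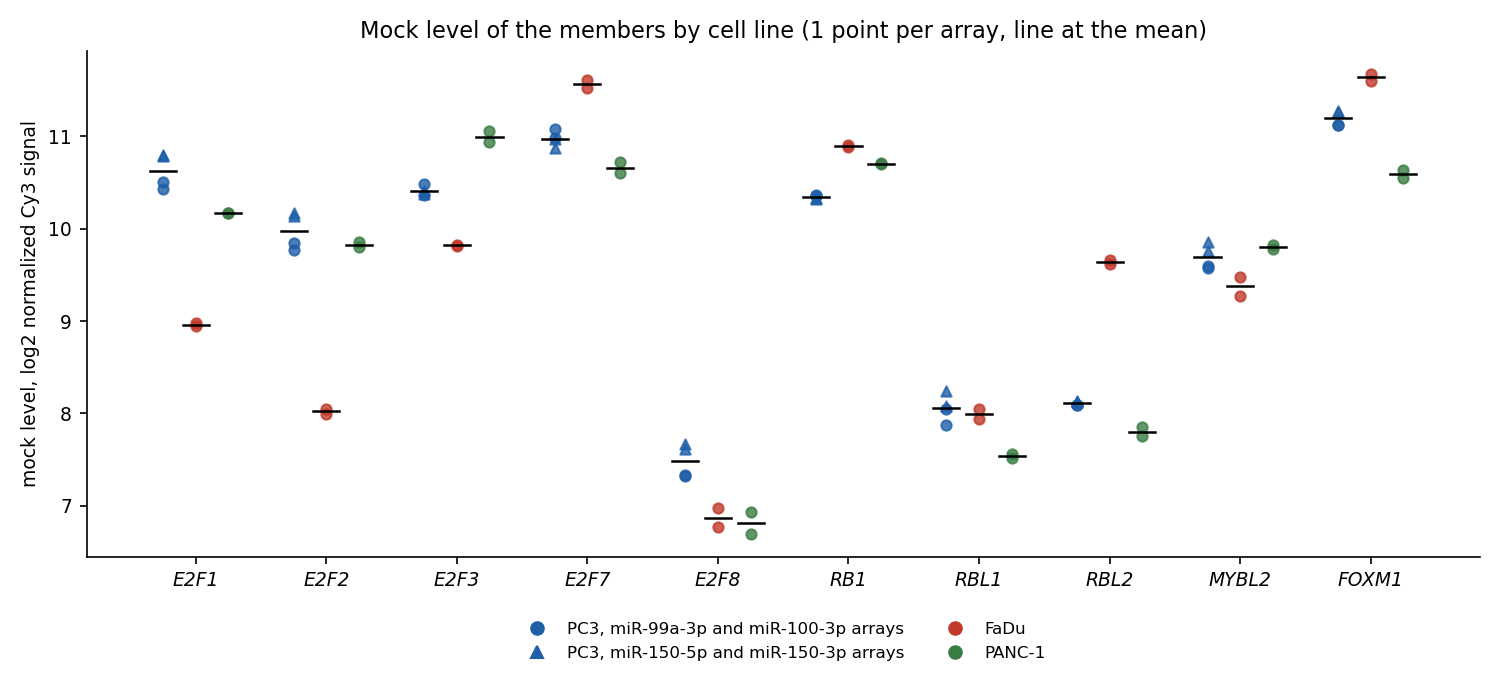
Mock level of each member as log2 of the normalized Cy3 signal (vertical axis), 1 point per array and a line at the mean of a line's arrays, with PC3 triangles for the miR-150 arrays. FaDu lies lowest for E2F1 (8.94 and 8.98) and E2F2 (7.99 and 8.05) and highest for RBL2 (9.61 and 9.67), and the PC3 triangles lie above the PC3 circles for E2F1, E2F2, E2F8, MYBL2 and FOXM1 among others. Levels of different genes are not comparable.

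The genes whose ratios lay closest to those of each member over the 8 arrays were found by the root mean square difference of log2 ratios, among 13244 genes above background in both channels on every array. E2F8 could not enter this comparison, since 1 of its channels was dim. NUF2, a kinetochore protein, was nearest to E2F1 at 0.14, followed by MELK, a kinase, at 0.16 and CENPU, a centromere protein, at 0.17. For E2F2 the nearest were UHRF1 at 0.32, DSCC1 at 0.36 and CCNE2 at 0.36, so no gene matched its range closely. FANCI, HIST1H4B and PRIM1 were nearest to FOXM1 at 0.17, 0.18 and 0.20. RBL1 had NUP93, DEPDC1B and SHMT1 at 0.17 to 0.20, and MYBL2 had EMC3-AS1, PDSS1 and LMNB2 at 0.13 to 0.26.

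For the other members the nearest genes lay at distances below the spot errors of these members, which were 0.20 or more. The distances from other genes to their own nearest genes were not computed, so those of the members have nothing to be set against. BUB3, IDH3B and SNRNP48 were nearest to E2F7 at 0.12 to 0.13, GALNT11, C11orf57 and VOPP1 to RB1 at 0.087 to 0.15, and SAV1, TIGD2 and COPS4 to RBL2 at 0.12 to 0.13. E2F3 had a probe without a gene name at 0.088, UBL4A at 0.11 and SRSF10 at 0.12. Between members, the smallest distances were 0.40 for E2F3 with RB1, 0.40 for E2F1 with FOXM1 and 0.41 for E2F7 with RBL2. These distances rest on 8 arrays that share a slide and, within a line, possibly their mock RNA.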

How the data were processed

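Total RNA of transfected cells (Cy5) and mock cells (Cy3) was hybridised to 8 Agilent arrays of 1 slide, annotated on hg19. The authors read the scans into values with version 10.7.3.1 of Agilent Feature Extraction. The deposited signal intensity has its background subtracted and its dyes normalized array by array, and the deposited log10 ratio is Cy5 over Cy3. Both carry no scaling between arrays, so intensities of separate arrays are not comparable as given.

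From these, log10 ratios were put on the log2 scale, control spots and outlier spots (81 to 178 per array) were left out, spots of a probe were averaged and the brightest probe stood for a gene. The deposited series values equalled the scanner ratios. A gene was measured when well above background in at least 1 channel, and a dim channel gave a bound. For mock levels, Cy3 intensities were normalized by loess and Aquantile and tested with limma 3.58.1 (R 4.3.3) over genes above background on all arrays of at least 1 line. On simulated data of 21496 genes for FaDu minus PC3, 82% of 200 changed genes were recovered with 10 false calls. The simulated channels varied independently, and all other genes were equal between the lines. In the real comparison 77% of all genes were called and the mock channels lay in close pairs. The simulated figures therefore do not give the error rates of the real comparison.

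The members and the companion lists were chosen with earlier results of these data known. Named genes were the members, FOXQ1, the 2 lowest and 2 highest genes of each list on the PC3 miR-99a-3p array among those above background in both channels, and the 3 nearest genes to each member. The values of 1 gene that this rule names are not reported here. Each array has 1 condition, so ratios were not tested and the number of arrays limits the precision. Alternatives were other background correction, normalization, centring, probe, filter, control and threshold choices. The sequences of miR-150-5p, miR-150-3p and the siRNAs were not used here, and target sites were not analysed here.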

Additional observations from a re-analysis of the deposited data

Results flagged for a closer look

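For 6 members the ratio with miR-99a-3p lay below mock in PC3 and above mock in FaDu, each by more than the spot error of its brightest probe, so the lines went opposite ways on the 1 array each. The PC3 minus FaDu difference of log2 ratios was -5.47 for E2F2, -4.84 for E2F8, -3.22 for E2F1, -2.64 for MYBL2, -2.02 for RBL1 and -0.96 for E2F7, and E2F8 was dim in the transfected PC3 cells. The other E2F7 probe lay below mock in both lines, at -0.83 and -0.18, so the opposite direction of E2F7 rests on 1 of its 2 probes. The share of all genes that went opposite ways in this manner was not counted, so the 6 members have nothing to be set against. The difference was not tested, since each line had 1 array with this miRNA. Mock levels of E2F1 and E2F2 were also lower in FaDu than in PC3, and their part in the difference was not tested.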

How the results depend on the processing

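No paired analysis was possible because every condition had 1 array. Of 639 recomputed ratios of single members, 613 moved by less than their spot error, 26 by more, and no ratio past 2-fold changed its sign. With normexp and loess, PC3 with miR-99a-3p had a members' median of -0.99, a G1/S median of -1.59 and a G2/M median of -1.84. On that array E2F2 was then at -2.42, E2F8 at -1.28 and RBL1 at -0.81. The members at or below -1 were 5 there and 4 with miR-150-3p, and the interferon median with miR-150-3p was 1.99. The count of 1 member at or above 1 with si-FOXQ1-1 became 0 under normexp, median centring and the mean of the line's mock channels. At a 1.5-fold threshold that count was 2, and it was 1 with miR-99a-5p, 7 with miR-99a-3p in FaDu and 1 with si-FOXQ1-2. At 4-fold it was 0 with si-FOXQ1-1 and 2 with miR-99a-3p in FaDu, and the counts below were 0 with miR-100-3p and 0 with miR-150-3p. The shares of all genes past 1.5-fold or 4-fold, or past 2-fold under other processing, were not computed. The partners' median in FaDu with miR-99a-3p was 0.25 with the least bright probe, and the interferon median in PC3 with miR-99a-3p was -0.38 against the mean of the line's mock channels. The least bright probe turned the E2F3 mock difference of FaDu minus PC3 to 0.23. With the closest mock channels counted as 1 sample, 2 members differed between PANC-1 and PC3. Leaving out 1 array left 8 to 9 members called for FaDu minus PC3, 6 to 9 for FaDu minus PANC-1 and 6 to 8 for PANC-1 minus PC3. The slide could not be fitted as a block, since all arrays lie on 1 slide. Among the 450 recomputed mock differences of members, 27 lost their call, none gained one and 1 reversed. The call of MYBL2 for FaDu minus PC3 was lost without the FaDu miR-99a-5p array (-0.22) or the PC3 miR-150-3p array (-0.30), and that of E2F1 for PANC-1 minus PC3 without either PANC-1 array (-0.45 and -0.46). Dim channels limit E2F8, whose signal was lowest.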
